A study of Mus musculus with 6 samples.

Results

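The 7 genes described here are those whose products mark osteoclast differentiation and cell fusion: Nfatc1, Dcstamp, Ocstamp, Acp5, Src, Oscar and Calcr. They were taken by symbol from a table of 52459 genes, and all 7 symbols were found in it. RNA was sequenced from bone marrow derived macrophages of C57BL/6 mice grown with GM-CSF, the only growth factor that the labels name. One group of 3 libraries received piceatannol overnight from day 7 of culture, and the control group of 3 libraries received vehicle. The sources used here give neither the dose nor the vehicle's identity nor the age of the mice. Nothing in the labels ties the 3 libraries of a group to different mice or dishes, so the spread behind each p-value may be technical only.

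Osteoclasts are the multinucleated cells that resorb bone, and they form from the same myeloid precursors as macrophages. In the textbook pathway, the cytokine RANKL (gene Tnfsf11) binds RANK (gene Tnfrsf11a), and adaptors with immunoreceptor tyrosine-based activation motifs, such as DAP12 (gene Tyrobp) and the Fc receptor gamma chain (gene Fcer1g), recruit the kinase Syk and raise calcium. Calcium activates calcineurin and with it the transcription factor NFATc1, which drives genes for fusion and resorption. Piceatannol is a plant stilbene known as an inhibitor of Syk. GM-CSF is known to direct precursors towards macrophages and dendritic cells, so these cultures are not osteoclast cultures.

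Of the 7 genes, 2 were lower with piceatannol (Nfatc1 and Dcstamp), 2 were higher (Src and Acp5) and 1 did not pass the test (Ocstamp). Oscar was at trace level and was not tested, and Calcr had no count in any library. The calls are from edgeR's quasi-likelihood test of the deposited read counts, with p-values adjusted by Benjamini and Hochberg's method across the 15380 genes that entered the test and called below 0.05. In the whole comparison 77% of the tested genes passed, 38.8% higher and 38.3% lower, so 4 passing genes of 5 tested is close to the share among all genes. At least 2-fold changes were found for 3 of the 5, against 34% of all tested genes. Across the tested members the median log2 fold change was -0.07, against 0.01 over all tested genes. CPM below stands for a gene's reads relative to its library's total after scaling. The groups of 3 libraries did not overlap for the 4 passing genes, as was the case for 79% of all tested genes.

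Library totals lay between 43586270 and 58697084 counts in control and between 33276569 and 49283203 in piceatannol libraries. All 10 macrophage markers were detected, led by the lysozyme gene Lyz2 at 14876 CPM in the controls and 10224 CPM with piceatannol. Of the 10 markers 8 fell, among them Itgam, Adgre1 and Csf1r, while Cd68 and Cd14 rose. Among all tested genes 77% passed, 38.8% higher and 38.3% lower. In these bulk libraries fewer cells of a type and less RNA per cell cannot be told apart.

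Nfatc1 encodes the transcription factor regarded as the master regulator of osteoclast formation (GRCm38, chromosome 18, 80606205 to 80713071, minus strand). Its level was 123, 123 and 125 CPM in control replicates 1 to 3 and 51.3, 52.9 and 54.0 CPM in piceatannol replicates 1 to 3. The libraries of each group lay close together and far from the other group. Nfatc1 fell 2.34-fold, or -1.23 ± 0.06 (SE) on the log2 scale, with an edgeR adjusted p = 1.55e-13. It nevertheless remained expressed, at 16.6 ± 0.123 FPKM in control and 6.99 ± 0.186 FPKM in piceatannol libraries (SD, n = 3 each), where FPKM is the authors' count scaled by gene length and library size.

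Dcstamp encodes a multipass membrane protein required for the fusion of osteoclast precursors and of macrophage giant cells (chromosome 15, 39745930 to 39760938, plus strand). It stood at 72.5, 76.9 and 56.0 CPM in control and at 19.3, 17.9 and 16.8 CPM in piceatannol libraries. Control replicate 3 was the lowest of the controls and was still well above every piceatannol library. Dcstamp fell 3.80-fold, or -1.93 ± 0.11 (SE) on the log2 scale, with an edgeR adjusted p = 1.89e-09. The protein was first named for dendritic cells, and most dendritic cell markers moved with it. Of 10 such markers 9 were tested, 7 fell and 0 rose. Among all tested genes 38.3% fell. The markers' summed level went from between 11197 and 12619 CPM to between 3118 and 3702 CPM. Most of that sum came from H2-Ab1 (5619 to 1079 CPM) and H2-Eb1 (4207 to 1186 CPM). Cd209a went from 56.3 to 1.24 CPM and Zbtb46 from 74.7 to 47.5 CPM, while Xcr1 was close to 0 in both groups. Ccr7 (563 and 481 CPM) and Cd86 (256 and 246 CPM) did not pass. The part of dendritic cells in the fall of Dcstamp was not tested.

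Ocstamp encodes a second multipass protein needed for osteoclast fusion (chromosome 2, 165393760 to 165400405, minus strand). It was rare, with 63, 54 and 56 counts in the controls against 44, 28 and 62 with piceatannol. As CPM these were 1.19, 1.23 and 0.948 in control against 1.04, 0.847 and 1.27 with piceatannol, and the groups overlapped. On the log2 scale the difference was -0.07 ± 0.26 (SE), with an edgeR adjusted p = 0.811. The ratio of summed counts was 0.973, with an exact binomial 95% interval of 0.771 to 1.23 that covers counting error only. Without piceatannol replicate 2 the log2 fold change was 0.051, on the other side of 0. The pair of fusion genes differed in level throughout: the deposited FPKM of Dcstamp was 111 ± 3.06 times that of Ocstamp in control and 32.4 ± 7.33 times in piceatannol libraries (SD, n = 3 each). The deposited values correspond to 1992 bases for Dcstamp, against 2664 bases of exon in GENCODE M21, which raises both ratios alike.

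Acp5 encodes tartrate-resistant acid phosphatase, the enzyme stained to identify osteoclasts and also made by macrophages (chromosome 9, 22126727 to 22135711, minus strand). Its level was 8.46, 8.43 and 8.06 CPM in the controls and 14.2, 12.9 and 10.4 CPM with piceatannol. The controls lay close together, the piceatannol libraries were spread, and the lowest of them was above every control. Acp5 rose 1.5-fold, or 0.58 ± 0.12 (SE) on the log2 scale, with an edgeR adjusted p = 0.000126. It is the smallest of the 4 changes: 44.4% of the tested genes had a smaller log2 fold change in size. The strand setting of the counting is not given in the sources used here, and in the GENCODE M21 annotation the exons of Acp5 share 137 bases with an antisense transcript, whose reads would then be counted with Acp5 or left out.

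Src encodes the tyrosine kinase that osteoclasts need to form the ruffled border and the actin-rich podosomes of the sealing zone (chromosome 2, 157418444 to 157471862, plus strand). Its level was 60.6, 60.8 and 62.8 CPM in the controls and 144, 158 and 146 CPM with piceatannol. Every piceatannol library had more than 2 times the level of every control. Src rose 2.43-fold, or 1.28 ± 0.06 (SE) on the log2 scale, with an edgeR adjusted p = 1.22e-13.

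Acp5 and Src are the members that rose, and their promoter windows are shown for that reason. RefSeq promoter sequences (build GRCm38.p6, 250 bases before to 50 after a start, 300 in all) matched 4 of the 7 members by symbol, with 3 alternative starts for Acp5, which feed one count. Capitals mark matches, on either strand, to AP-1 (TGANTCA), the NFAT core (GGAAA), PU.1 (GAGGAA), the E-boxes CACGTG and CATGTG bound by MITF, and the antioxidant response element core (TGACNNNGC).
Acp5, chr9:22135697-22135996, minus strand: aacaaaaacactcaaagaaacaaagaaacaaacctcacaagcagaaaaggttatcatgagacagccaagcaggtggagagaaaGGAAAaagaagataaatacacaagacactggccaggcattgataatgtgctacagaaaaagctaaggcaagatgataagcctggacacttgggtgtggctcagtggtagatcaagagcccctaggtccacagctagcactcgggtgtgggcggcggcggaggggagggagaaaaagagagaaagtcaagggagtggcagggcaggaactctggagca
Acp5, chr9:22131816-22132115, minus strand: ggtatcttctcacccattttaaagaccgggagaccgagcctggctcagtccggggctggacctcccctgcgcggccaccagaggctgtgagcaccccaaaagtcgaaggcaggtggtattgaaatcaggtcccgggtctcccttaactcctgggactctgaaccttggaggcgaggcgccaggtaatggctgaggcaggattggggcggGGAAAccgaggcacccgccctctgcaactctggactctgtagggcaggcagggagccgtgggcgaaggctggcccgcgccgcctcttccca
Acp5, chr9:22130549-22130848, minus strand: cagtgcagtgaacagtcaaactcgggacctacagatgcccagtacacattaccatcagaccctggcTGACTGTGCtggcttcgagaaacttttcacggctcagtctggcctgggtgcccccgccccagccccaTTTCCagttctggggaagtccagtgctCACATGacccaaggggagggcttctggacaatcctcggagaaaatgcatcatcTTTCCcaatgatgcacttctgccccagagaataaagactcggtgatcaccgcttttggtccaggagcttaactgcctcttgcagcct
Src, chr2:157424043-157424342, plus strand: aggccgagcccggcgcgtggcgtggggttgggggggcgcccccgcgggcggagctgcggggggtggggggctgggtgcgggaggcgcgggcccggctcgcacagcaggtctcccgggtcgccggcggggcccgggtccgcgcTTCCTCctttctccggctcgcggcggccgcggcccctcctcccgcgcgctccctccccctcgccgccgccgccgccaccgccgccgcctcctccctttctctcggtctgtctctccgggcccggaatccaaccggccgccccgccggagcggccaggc
Each Acp5 window held the NFAT core, which 61.3% of the 32851 promoter windows in the table hold. The Acp5 window that ends at 22130848 held 2 matches to it, an E-box CATGTG (found in 14.2% of all windows) and an antioxidant core (12.4%). The Src window was 82.3% G and C, against a median of 52.7% over all windows, and held 1 PU.1 match (28.3% of all windows) and 2 GC boxes (GGGCGG, 35.7%), which are left in lower case. No AP-1 match, found in 7.81% of all windows, and no CACGTG, found in 7.15%, was present in the 4 windows. These matches are letters in a window and do not show binding.

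Oscar encodes a collagen-binding receptor that signals through the Fc receptor gamma chain (chromosome 7, 3609813 to 3616157, minus strand). Its counts were 4, 3 and 6 in the controls against 3, 0 and 2 with piceatannol, below the minimum for testing. The ratio of summed counts, 5 against 13, was 0.483 with an exact binomial 95% interval of 0.135 to 1.44, and this depth could not show a difference. Calcr encodes the calcitonin receptor, a late marker of mature osteoclasts (chromosome 6, 3685680 to 3764714, minus strand). No read was counted for it in any of the 6 libraries, which allows a level of up to 0.0193 CPM over the control group and 0.0242 CPM over the piceatannol group, at 3 counts of each total and for counting error only.

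**Figure D1:**
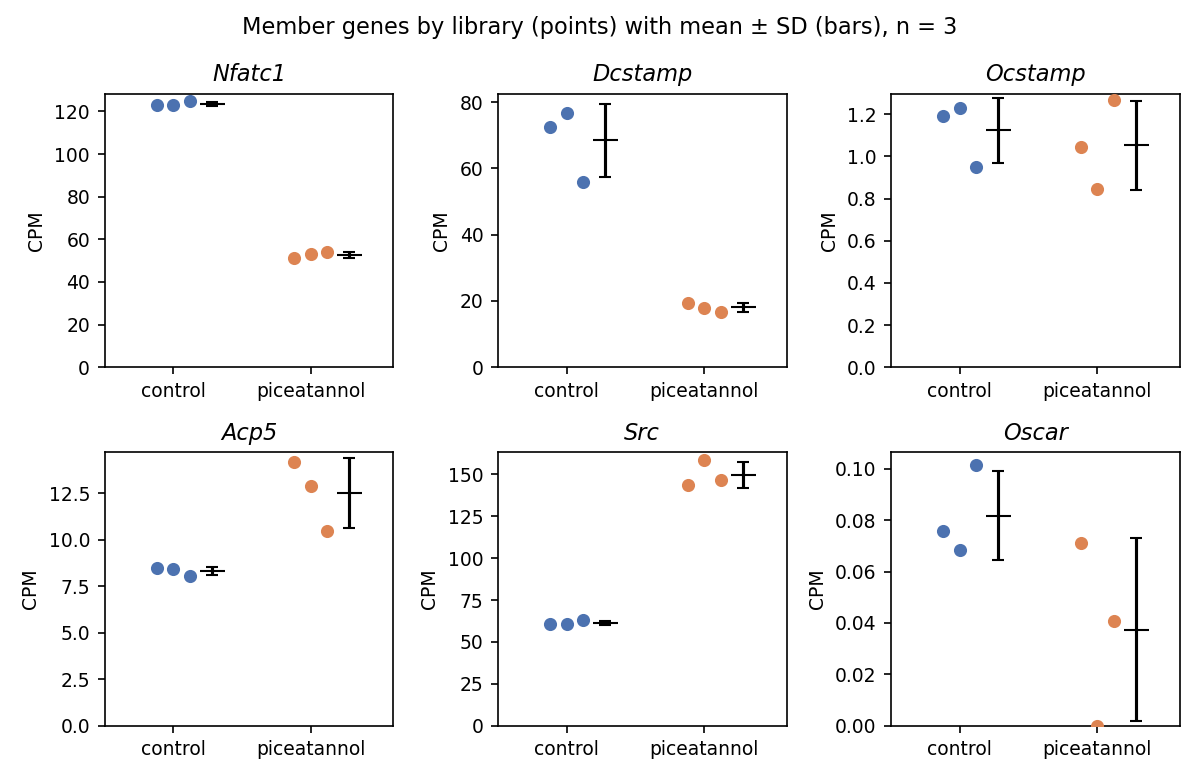
CPM (linear axis from 0, its range set for each gene) of 6 member genes in each of the 3 control and 3 piceatannol libraries (points), with mean ± SD beside them (bars). Nfatc1 and Dcstamp were lower and Src and Acp5 higher in every piceatannol library than in any control, while Ocstamp and Oscar overlapped. Calcr, at 0 in all libraries, is not drawn.

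Per length, the order of the members changed between the groups. In control libraries Dcstamp led with 34.4 ± 5.61 FPKM, followed by Nfatc1 (16.6 FPKM), Src (14.1 ± 0.265 FPKM), Acp5 (4.10 ± 0.118 FPKM), Ocstamp (0.310 ± 0.0436 FPKM) and Oscar (between 0.04 and 0.05 FPKM), with no overlap between neighbours over the 3 libraries. With piceatannol Src led with 33.7 ± 1.89 FPKM, followed by Dcstamp (8.90 ± 0.620 FPKM), Nfatc1 (6.99 FPKM), Acp5 (6.06 ± 0.918 FPKM), Ocstamp (0.283 ± 0.0551 FPKM) and Oscar (listed at 0 in 1 library and at most 0.04). In that group Nfatc1 and Acp5 overlapped and were not separated by their spread. The deposited values correspond to a length of 1992 bases for Dcstamp, against 2664 bases of exon in GENCODE M21. Rescaled to that length Dcstamp had 25.7 ± 4.2 FPKM in control, still the highest, and 6.66 ± 0.464 FPKM with piceatannol, where it overlapped Nfatc1. The Src level was 0.846 ± 0.00966 times that of Nfatc1 in control and 4.82 ± 0.246 times in piceatannol libraries. Among tested genes, Src went from the 75.5 to the 90.4 percentile of mean FPKM and Dcstamp from the 89.5 to the 67.2 percentile.

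**Figure D2:**
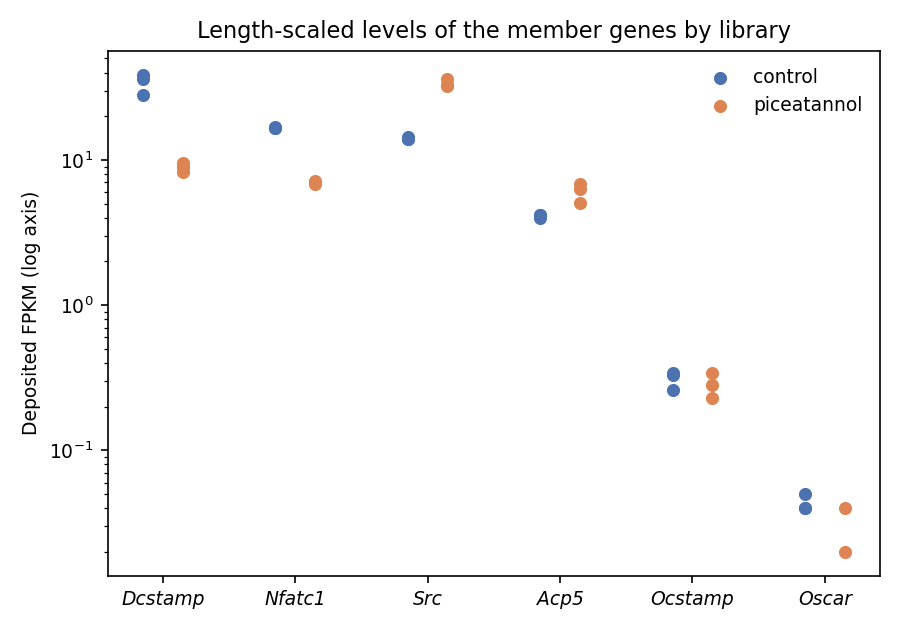
Deposited FPKM of 6 member genes on a log axis, 1 point per library (3 control, 3 piceatannol). Dcstamp is highest in control and Src in piceatannol libraries. The piceatannol library with Oscar at 0 cannot be drawn on this axis, and overlapping points hide one another.

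Upstream of Nfatc1, the ligand gene of the pathway was nearly absent and the receptor gene did not pass the test. The RANKL gene Tnfsf11 had 4, 3 and 9 counts in the controls, 1, 4 and 1 with piceatannol, and was not tested. The RANK gene Tnfrsf11a stood at 39.3 ± 2.48 CPM in the controls and 40.1 ± 1.18 CPM with piceatannol (SD, n = 3 each), a log2 difference of 0.03 ± 0.07 (SE) that did not pass (edgeR adjusted p = 0.713). The RANK adaptor gene Traf6 rose by 0.94 on the log2 scale. The receptor for the growth factor CSF1, Csf1r, fell 2.55-fold, from 1679 ± 48.7 to 657 ± 30.2 CPM. The activating adaptors Tyrobp (887 ± 57.4 to 451 ± 11 CPM) and Fcer1g (591 ± 22.6 to 365 ± 7.17 CPM), which pairs with Oscar, also fell. Syk rose from 444 to 727 CPM, as did the kinase gene Tec (log2 fold change 1.78) and the scaffold gene Gab2 (1.27). Phospholipase C gamma 2, Plcg2, which releases calcium below these kinases, fell from 276 ± 8.68 to 81.0 ± 3.04 CPM, and the kinase gene Btk fell by 1.22 on the log2 scale. Of 29 ligands, receptors and adaptors 27 were tested, 9 rose and 13 fell, and the list's median log2 fold change was -0.03. The share that passed was 81.5%, near the 77% of all tested genes (38.8% higher and 38.3% lower).

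Genes of the calcium and NFAT step fell more often than they rose. Of 26 listed 24 were tested, 6 rose and 15 fell, and the list's median log2 fold change was -0.43 against 0.01 for all tested genes. The share that passed was 87.5%, against 77% of all tested genes. Nfatc2, a paralogue of Nfatc1, fell 7.65-fold, from 122, 119 and 110 CPM to 13.9, 14.2 and 17.7 CPM. Nfatc3 fell by 0.15 on the log2 scale (adjusted p = 0.0315, edgeR) and Nfatc4 by 0.72. Summed over Nfatc1 to Nfatc4, the FPKM went from 38.3 ± 0.992 to 17.4 ± 0.462, while the share of Nfatc1 in it went from 43.4% ± 1.43 to 40.3% ± 0.309 (SD, n = 3 each). The share of Nfatc3 rose from 23.7% ± 1.11 to 46.4% ± 1.39, so that with piceatannol Nfatc3, not Nfatc1, had the highest FPKM of the family. The calcium channel gene Itpr1 (-1.76) and the calmodulin gene Calm3 (-1.35) fell, as log2 fold changes. The calcineurin inhibitor gene Rcan1 (0.78), the kinase gene Gsk3b (1.15), whose product returns NFAT to the cytoplasm, and the scaffold gene Homer3 (0.85) rose. The list holds inhibitors as well as activators of this step, and neither kind moved in one direction. Of other inhibitor genes, Dyrk1a (0.50) rose, and Cabin1 (-0.82), Rcan3 (-0.39) and the rare Rcan2 (-0.90, groups overlapping) fell. Of the calcium entry genes, Stim1 (0.50) rose and Orai1 (-0.49) fell.

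Transcription factors known to act with Nfatc1 were divided. Of 22 tested, 8 rose and 9 fell, and the list's median log2 fold change was -0.08. The share that passed was 77.3%, near the 77% of all tested genes. The AP-1 subunit gene Fos, required for osteoclast formation, fell 2.19-fold, from 248 ± 27.4 to 114 ± 3.88 CPM, whereas its partners Jun (183 ± 12.5 to 1534 ± 42.5 CPM) and Junb (log2 fold change 1.35) rose. Mitf, which acts on resorption genes, rose from 31.9 ± 1.38 to 45 ± 1.35 CPM, and the myeloid factor Spi1 (PU.1) fell by 0.98 on the log2 scale. Ppargc1b, a coactivator of mitochondrial genes in osteoclasts, rose from 4.03 ± 0.714 to 31.7 ± 0.0874 CPM, and the AP-1 related gene Jdp2 fell by 1.11 on the log2 scale.

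Factors known to restrain osteoclast formation were also divided. Of 21 tested, 8 rose and 10 fell, and the list's median log2 fold change was -0.02. The share that passed was 85.7%, against 77% of all tested genes. Irf8, which represses Nfatc1, rose 1.44-fold, from 347 ± 15.6 to 498 ± 27.2 CPM. Cebpb (2.15), Id2 (0.85) and Tnfaip3 (0.75) rose, as log2 fold changes. The phosphatase gene Ptpn6 fell by 3.09 on the log2 scale.

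Resorption genes included large rises beside Acp5, and also falls. Of 25 listed 24 were tested and all 24 passed, 14 higher and 10 lower, with a median log2 fold change of 0.82. Among all tested genes 77% passed, 38.8% higher and 38.3% lower. Integrin beta 3, Itgb3, which attaches osteoclasts to bone and signals through Src, rose 7.58-fold, from 23.0, 22 and 22.6 CPM to 169, 192 and 152 CPM. The proton pump subunit gene Atp6v0d2, a target of NFATc1 that also serves in fusion, rose 4.79-fold, from 138 ± 3.37 to 660 ± 47.7 CPM. Further pump subunit genes, Tcirg1 (1.21), Atp6v1c1 (1.42), Atp6v1a (1.44), Atp6v1b2 (0.82) and Atp6v1h (0.98), rose as well, as log2 fold changes. The part of the pump genes in the list's median was not tested. Cathepsin K, Ctsk, the main collagen-degrading protease of osteoclasts, rose 2.60-fold, from 14.1, 11.3 and 14.4 CPM to 37.0, 26.6 and 39.6 CPM. Mmp9, another matrix protease of osteoclasts, went the other way and fell 2.92-fold, from 33.5 ± 4.85 to 11.6 ± 3.01 CPM. The creatine kinase gene Ckb (1.91) rose, and the lysosomal phosphatase gene Acp2 (-1.66), the integrin gene Itgb5 (-1.35) and the vesicle traffic gene Rab7 (-0.98) fell, as log2 fold changes. So did Mmp14 (-0.99), Car2 (-0.54), Snx10 (-0.38) and Ostm1 (-0.23). Acp5 and Acp2, both lysosomal acid phosphatases, moved in opposite directions.

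**Figure D3:**
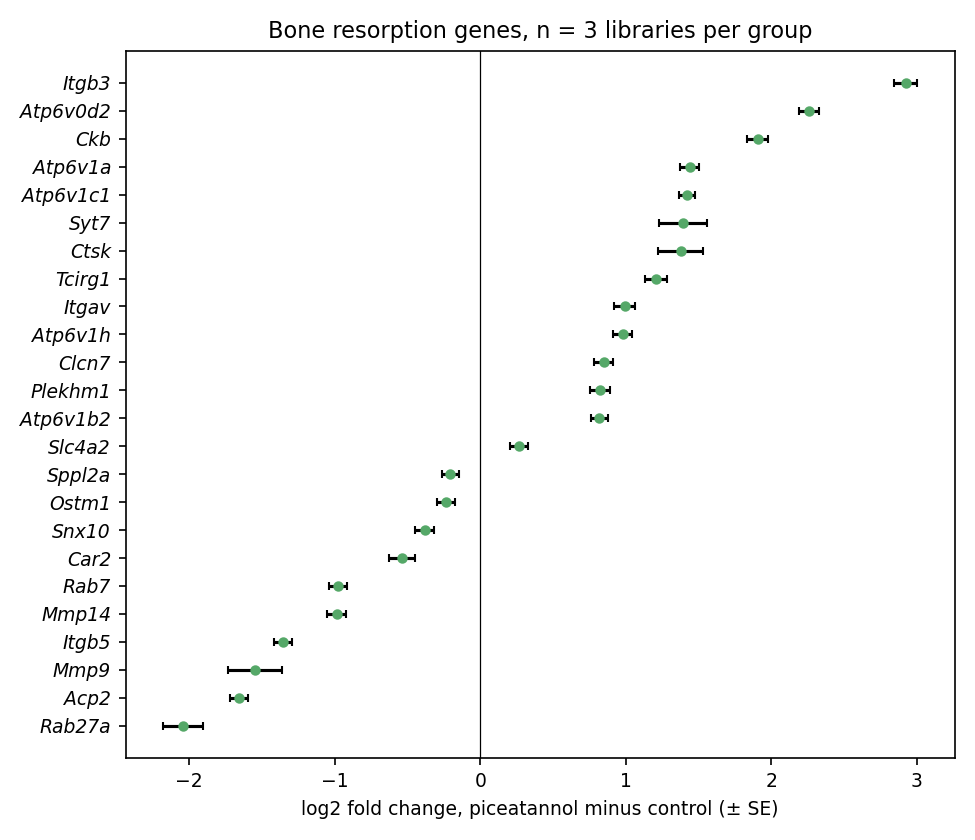
Log2 fold change (piceatannol minus control, with SE, n = 3 libraries per group) of the 24 tested bone resorption genes, ordered by value. Itgb3 (2.92) and Atp6v0d2 (2.26) lie at the upper end, and 10 genes lie below 0.

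Fusion genes besides Dcstamp and Ocstamp moved both ways. Of 29 listed 27 were tested, 10 rose and 15 fell, and the list's median log2 fold change was -0.16. The share that passed was 92.6%, against 77% of all tested genes. E-cadherin, Cdh1, which joins precursors before fusion, fell 14.3-fold, from 861 ± 39.9 to 60.3 ± 6.34 CPM. The GTPase gene Rac2 (-1.62) and its activator gene Dock2 (-1.35) fell as well. Of the tetraspanins, which organise the fusing membrane, Tspan13 (1.59) and Tspan5 (1.00) rose, and so did Bsg (1.06), as log2 fold changes.

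Most kinases related to Src moved the other way. Of 7 family genes compared here, Src and Yes1 rose and Fyn, Lyn, Fgr, Lck and Blk fell, and Yes1 was rare (0.327 ± 0.0416 FPKM in control and 0.513 ± 0.0723 FPKM in piceatannol libraries). Fgr fell from 255, 298 and 259 CPM to 13.1, 8.87 and 11.8 CPM. Lyn fell 2.18-fold and Fyn 1.43-fold. Summed over the 7 genes, the FPKM went from 161 ± 7.86 to 77.8 ± 1.5, and the share of Src in it from 8.74% ± 0.52 to 43.3% ± 1.68 (SD, n = 3 each). In control libraries Src came by FPKM after Fgr, Lyn and Fyn, and with piceatannol it was above each of these and above Yes1, Lck and Blk in every library. Fgr and Lyn are known from haematopoietic cells. Of 10 macrophage markers 8 fell, while Cd68 and Cd14 rose, and among all tested genes 38.3% fell. The part of macrophages in the falls of Fgr and Lyn was not tested, nor whether Src rose in the same cells.

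Around Src, its inhibitory kinase gene Csk fell 2.17-fold, from 295 ± 17.1 to 136 ± 6.56 CPM, and the gene of its osteoclast partner PYK2, Ptk2b, rose from 387 ± 22.8 to 433 ± 10.1 CPM (adjusted p = 0.0213, edgeR). Of the 30 family, regulator and podosome genes, all were tested, 11 rose and 16 fell, and the list's median log2 fold change was -0.43. The share that passed was 90%, against 77% of all tested genes. The Src-binding actin adaptor gene Afap1 (1.58), the actin nucleation gene Wasl (1.20) and the ubiquitin ligase gene Cblb (0.83) rose. The actin-severing gelsolin gene Gsn (-1.75), Asap1 (-1.53) and Was (-1.49), a blood cell relative of Wasl, fell.

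**Figure D4:**
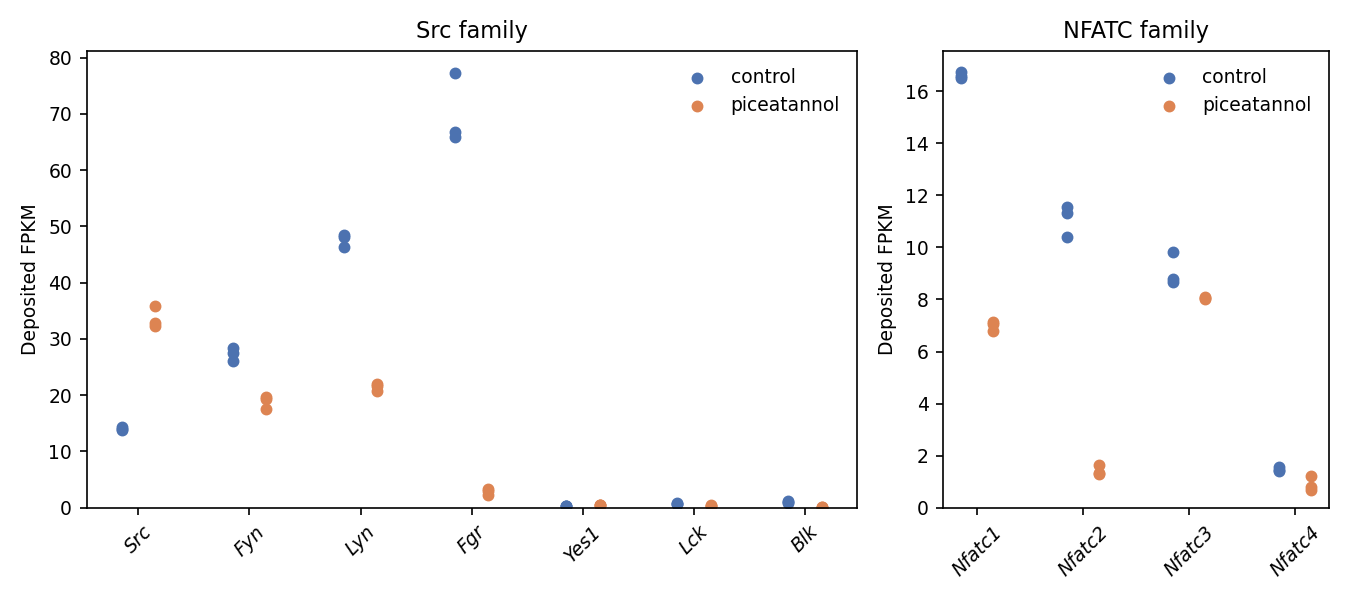
Deposited FPKM (linear axes from 0) of 7 Src family genes and the 4 NFATC genes, 1 point per library, 3 control and 3 piceatannol. Src is the highest of the 7 in piceatannol libraries, where Fgr is low, and Nfatc3 is the highest NFATC gene there.

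Relatives of the calcitonin receptor were present although Calcr was not counted. Of 12 listed 9 were tested and all passed, 7 higher and 2 lower, with a median log2 fold change of 0.93. Among all tested genes 77% passed, 38.8% higher and 38.3% lower. Calcrl, the receptor gene for related peptides, rose from 3.66 ± 0.501 to 9.05 ± 1.58 CPM. Of the accessory proteins that set ligand choice, Ramp3 rose by 0.91 and Ramp1 fell by 1.41 on the log2 scale. The peptide gene Adm (2.64) and the incretin receptor gene Gipr (4.13) also rose, and Pth1r fell by 0.76.

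Known ligands of the protein that Oscar encodes fell. Of 5 listed 4 were tested, all of them collagen genes, and all 4 fell, and the list's median log2 fold change was -2.34. Among all tested genes 38.3% fell. Col1a1 went from 887 ± 34.1 to 216 ± 15.5 CPM, Col1a2 from 1060 ± 90.4 to 242 ± 22.2 CPM and Col2a1 from 27.2 ± 5.35 to 4.31 ± 0.857 CPM. The list of bone stroma and osteoblast markers, cells that make collagen, holds 10 genes, of which Col1a1 and Col1a2 supply most of the summed level (between 2023 and 2266 CPM in control and between 574 and 618 CPM in piceatannol libraries). Without this pair, the other 8 markers summed to between 171 and 186 CPM in control and between 135 and 160 CPM in piceatannol libraries, and of the 7 tested 1 rose, 3 fell and 3 did not pass. The osteoblast factor gene Runx2 rose from 33.7 ± 1.19 to 68.6 ± 3.5 CPM, while Cxcl12 fell from 71.3 ± 4.33 to 7.02 ± 0.801 CPM, and Pdgfra and the rare Sp7 (0.899 to 0.413 CPM) also fell. Lepr (36.0 and 39.0 CPM), Dcn (26.3 and 21.9 CPM) and Alpl (0.495 and 0.272 CPM) did not pass, and Bglap was at 0 in all libraries. The part of such cells in the values of the collagen genes was not tested.

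**Figure D5:**
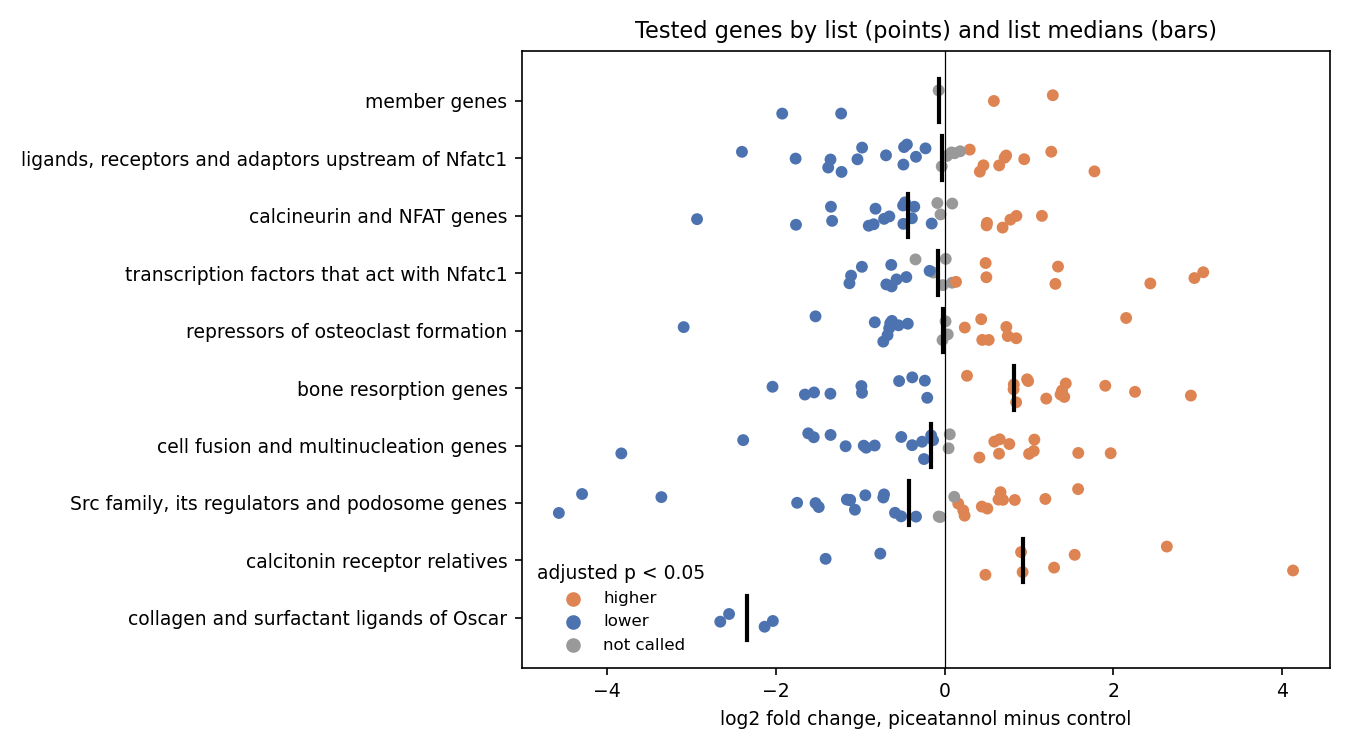
Log2 fold change (piceatannol minus control) of each tested gene by list (points, coloured by the edgeR call at an adjusted p under 0.05) with the median of each list (bars). The bone resorption list has a median of 0.82, and the 4 tested collagen genes all lie below 0.

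Other cell types were low or moved in part. Their counts stand beside 77% of all tested genes that passed, 38.8% higher and 38.3% lower. Of 10 neutrophil markers 8 were tested and all 8 fell, and control replicate 2 had the highest sum (604 CPM, against 259 and 361 CPM in the other controls, and between 34.9 and 42.8 CPM with piceatannol), while Ly6g was close to 0 throughout. Summed lymphocyte markers lay between 2.21 and 4.08 CPM in all libraries, with 1 of 6 tested markers higher and 5 lower and Ncr1 at 0. For mast cells and basophils 1 of 7 tested markers, Kit, rose (21.5 to 74.4 CPM), and the other 6 fell. The summed level went from at most 46.1 CPM to at least 75.2 CPM, a rise that came from Kit alone. For erythroid cells and megakaryocytes 3 of 5 tested markers rose and 0 fell, with a summed level between 269 and 320 CPM in all libraries, led by Pf4. The calls of the 4 passing members were the same when control replicate 2, or any other single library, was left out. The part of neutrophils in these calls was not tested, as the other controls also had higher marker sums than the piceatannol libraries.

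The genes of most similar pattern were found from the root mean square difference in log2 CPM, each taken relative to its own control mean, over the 6 libraries and 11702 genes compared. For Nfatc1 these were the kinase gene Mapk14, which encodes p38 alpha (0.0236, 239 ± 5.56 to 101 ± 3.73 CPM), and Serhl (0.0237). For Src they were Gab2 (0.0324) and Ttyh2 (0.0329). For Dcstamp they were Zbed3 (0.0820) and Ska2 (0.0830), for Acp5 Camkmt (0.050) and Tra2b (0.0515), and for Ocstamp Fam120aos (0.105) and Eci1 (0.111). Likeness over 6 libraries in 2 groups mostly reflects a similar fold change.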

How the data were processed

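Counts are whole-number reads per gene symbol that the authors deposited, 1 column per library, and FPKM values of the same genes were deposited beside them. Per the submitters' processing notes, bcl2fastq, STAR, featureCounts and DESeq2 were used with the builds mm10 and GRCm38. The sources used here do not give versions, annotation or strand setting. Groups came from the sample titles. From the counts, genes were filtered with edgeR 4.0.16 (filterByExpr, minimum count 10), which left 15380 genes holding at least 99.94% of each library's counts, scaled with TMM, and tested with the quasi-likelihood test with robust dispersion (R 4.3.3), two-sided, Benjamini-Hochberg threshold 0.05. The SE is the log2 fold change divided by the square root of F. The gene test was tested on simulated data. Intervals of 95% and floors of 3 counts cover counting error only.

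Within each group every pair of libraries differed beyond counting noise (chi-square per degree of freedom 10.1 to 18.6). Positions are from GENCODE M21 (GRCm38). The members and the 9 gene lists and 7 marker lists were chosen with earlier results of these data known. The text names all members, from each list up to 3 passing genes of smallest p in each direction with mean log2 CPM of at least 0, listed direct partners, and the 2 nearest genes of each tested member. The family genes besides those (Fgr, Lyn, Fyn, Yes1, Lck, Blk, Nfatc4) and marker genes were named after their values were seen. The same holds for the further pump subunit genes and for Mmp14, Car2, Snx10 and Ostm1. It also holds for Dyrk1a, Cabin1, Rcan2, Rcan3, Stim1 and Orai1. A few genes that the rule or a family would add are not reported here. Alternatives were RLE, upper-quartile and library-total scaling, no filter, a filter of CPM 5 in 3 libraries, DESeq2 1.42.0, limma 3.58.1 (voom, and log2 of FPKM + 1 or + 0.1), a replicate block, stricter thresholds and leaving out each library.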

Additional observations from a re-analysis of the deposited data

How the results depend on the processing

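Nfatc1, Dcstamp, Src and Acp5 kept their direction and passed under every scaling, filter, test and left-out library tried, and the exception was Acp5 when a 2-fold change was also required. Over 18 alternatives the log2 fold change ranged from -1.26 to -1.14 for Nfatc1, from -2.06 to -1.83 for Dcstamp, from 1.20 to 1.34 for Src and from 0.46 to 0.70 for Acp5. Ocstamp passed under none of its 17 alternatives (adjusted p between 0.494 and 0.982, log2 fold change from -0.23 to 0.051), its value turned to 0.051 without piceatannol replicate 2, and it could not be tested under the filter of CPM 5. Without a filter, Oscar stood at -1.05 ± 1.09 (SE) on the log2 scale, with an edgeR adjusted p = 0.451. Requiring at least 2-fold left 5234 genes (2686 higher, 2548 lower) and 3 members (1 higher, 2 lower). By list it left 8 ligand and adaptor, 5 calcineurin and NFAT, 7 transcription factor, 3 repressor and 12 resorption genes. It also left 11 fusion, 12 Src family and podosome, 5 calcitonin receptor relative and 4 collagen genes. Counts can only stay or shrink, by construction of that threshold. Leaving out 1 library gave 11487 to 11880 genes and 4 members in each case. Replicate numbers paired the samples weakly if at all. Same-numbered libraries correlated at only 0.0369, 0.0696 and 0.0654 in their deviations from the group means, though each was best with its own number. The replicate block gave 12012 genes against 11846 without it, and 4 members. Depth limits Oscar and Calcr.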
